A study of Mus musculus with 45 samples.

Results

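The genes of the MHC class II presentation pathway were followed across 9 genotypes of mouse ileum: Ciita, H2-Aa, H2-Ab1, H2-Eb1, H2-DMa, H2-DMb1, H2-DMb2, H2-Oa, H2-Ob and Cd74. They were chosen by name, with earlier results of these data known, as the class II transactivator, the classical chains, the DM and DO chains and the invariant chain. Of these 10 genes, 9 were measured, each by 1 probe, among 19494 genes with a symbol, and Cd74 is not analysed here. RNA from frozen pieces of whole ileum was hybridised to 45 whole-transcript microarrays, 1 mouse per array and 5 mice per group, and every level below is a log2 intensity as deposited. The mice were about 11 weeks old (10 to 12 weeks by another label), were kept free of specific pathogens on regular chow, and their sex was not given.

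The groups were FADD IEC-KO CASP8 IEC-KO Mlkl -/-, FADD IEC-KO RIPK3 IEC-KO, FADD IEC-KO Zbp1 -/-, FADD IEC-KO Mlkl -/-, FADD IEC-KO, Fadd fl/fl, CASP8 IEC-KO Mlkl -/-, CASP8 IEC-KO and Casp8 fl/fl. IEC-KO stands for deletion in intestinal epithelial cells (the driver of the deletion is not given in the sources used here), Mlkl -/- and Zbp1 -/- for loss in the whole body, and the Fadd fl/fl and Casp8 fl/fl mice carry the floxed allele and are used as controls. FADD and caspase-8 hold back necroptosis, a lytic cell death in which RIPK3 activates the pore-forming protein MLKL, and ZBP1 is a sensor that can activate RIPK3. Genotype titles and genotype fields disagreed for the FADD IEC-KO CASP8 IEC-KO Mlkl -/- mice, whose genotype field leaves out FADD; Fadd averaged 6.05 ± 0.44 in them, and they are called by their titles.

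MHC class II molecules are pairs of an alpha and a beta chain that show peptides from engulfed proteins to CD4+ T cells. Their genes are switched on together by CIITA, a coactivator that does not bind DNA itself but docks on factors (RFX, CREB and NF-Y) sitting on the X and Y boxes of class II promoters. In the gut, dendritic cells, macrophages and B cells carry class II all the time, and small intestinal epithelial cells make it as well, above all under interferon gamma. A change in whole tissue cannot tell fewer cells of a type from less RNA per cell.

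The promoter sequences are shown because they carry the letters on which CIITA-dependent control is known to rest, and because H2-Ob and H2-Oa, which behaved unlike the other genes below, can be set beside them. RefSeq promoter entries (GRCm38.p6, 250 bases before to 50 after each start) were found for 7 of the 9 measured genes. All stretches are 65 bases upstream of a start on chromosome 17. The capitals mark the X box letters AACNNNTG or, in H2-Aa, TGACGTCA, the letters CREB binds, and then a Y box (ATTGG, the CCAAT box read on the other strand). In H2-Oa only the Y box letters are marked. H2-Eb1 lies at chr17:34305758-34305822 (plus strand), H2-DMb1 at chr17:34153080-34153144 (plus strand), H2-DMb2 at chr17:34145109-34145173 (plus strand), H2-Ob at chr17:34238798-34238862 (plus strand), H2-Aa at chr17:34287857-34287921 (minus strand) and H2-Oa at chr17:34092286-34092350 (plus strand).
H2-Eb1: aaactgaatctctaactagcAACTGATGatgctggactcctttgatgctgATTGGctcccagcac
H2-DMb1: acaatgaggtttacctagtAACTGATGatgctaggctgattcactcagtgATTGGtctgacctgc
H2-DMb2: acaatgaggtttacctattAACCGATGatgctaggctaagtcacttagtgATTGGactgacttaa
H2-Ob: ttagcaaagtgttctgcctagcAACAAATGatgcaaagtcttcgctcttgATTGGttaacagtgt
H2-Aa: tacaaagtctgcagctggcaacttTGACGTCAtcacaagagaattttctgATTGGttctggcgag
H2-Oa: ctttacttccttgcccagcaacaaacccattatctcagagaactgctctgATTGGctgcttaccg

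Both motifs were searched on both strands. AACNNNTG followed by ATTGG with 15 to 35 bases between them stood in 0.764% of the 32851 promoter entries, and in 4 of the 7 class II genes with an entry (H2-Eb1, H2-DMb1, H2-DMb2 and H2-Ob), with 20 to 23 bases between. ATTGG alone stood in 37.4% of all entries and in all 7, AACNNNTG alone in 35.6% and in 5 of 7, and TGACGTCA in 1.79% and in H2-Aa. H2-Oa was among the 5 with AACNNNTG, but without ATTGG at the spacing searched. H2-DMa, whose stretch is not shown, had ATTGG but neither AACNNNTG nor TGACGTCA. The H2-DMb1 and H2-DMb2 stretches were alike at 56 of 65 bases (86.2%). These genes are close copies of one another, so the signals of their probes may not be fully separate, and how far is uncertain. A match describes letters and not a bound site.

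The classical chains were among the brightest genes in the ileum. Averaged over all arrays, H2-Ab1 (beta chain of I-A) stood at 11.14, above 98.9% of the genes measured, and H2-Aa (its alpha chain) at 10.50 and H2-Eb1 (beta chain of I-E) at 9.73. Of the DM chains, which swap the invariant chain's fragment for antigen peptides, H2-DMb1 stood at 10.54, H2-DMa at 8.05 and H2-DMb2 at 7.93. Ciita stood at 6.72, near the middle of all genes (above 54.1%), and the DO chains, which restrain DM and are known mainly from B cells, lay lower, with H2-Ob at 5.91 and H2-Oa at 5.65. Intensities of different probes are not on a common scale, so these levels place each gene among the array's values and do not rank the genes' transcripts. In the genome (GRCm38.p6), Ciita lies alone at chr16:10480014-10531064, and the others lie in the class II region of chromosome 17, from H2-Oa (chr17:34092379-34095234) to H2-Eb1 (chr17:34305867-34316674).

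The arrays were even, with medians between 6.36 and 6.44. Fadd and Casp8 were lower where the titles name them: Fadd averaged 6.05 to 6.45 in the groups with FADD deleted and 7.43 to 7.53 in the others, and Casp8 averaged 9.55 to 10.23 with caspase-8 deleted and 11.14 to 11.40 in the others. Mlkl did not separate all groups in this way: it averaged 8.43 ± 0.22 in CASP8 IEC-KO Mlkl -/- mice and 8.62 ± 0.21 in Casp8 fl/fl mice (SD, n = 5 each), with overlapping ranges, so its level does not check those labels. In 2 mice the targeted gene was nearest to control level within the group, yet below every floxed control of that gene. FADD IEC-KO replicate 1 had Fadd at 7.32, against 7.46 to 7.61 in Fadd fl/fl mice. CASP8 IEC-KO replicate 1 had Casp8 at 10.89, against 11.24 to 11.49 in Casp8 fl/fl mice and 10.57 in CASP8 IEC-KO replicate 5. Counts of called members (adjusted p under 0.05) are also given without each of them. In counts over the other gene lists below, rose and fell stand for called higher and called lower. P-values of differences between groups use an estimate of spread per gene that is shared by all 9 groups, not that of the compared groups alone. The members' SDs were unlike between groups (0.05 to 1.52 for H2-DMb1). Where the compared groups varied little, such a p-value can therefore miss small differences.

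Ciita, the transactivator, was lowest in CASP8 IEC-KO ileum. Its levels were 6.73, 5.44, 6.12, 5.78 and 6.19 in CASP8 IEC-KO mice, against 6.60, 7.08, 6.69, 6.95 and 7.27 in Casp8 fl/fl mice. Of the CASP8 IEC-KO mice, 4 lay below every Casp8 fl/fl mouse, and replicate 1, the one with Casp8 nearest to control level, lay inside the control range. The group means were 6.05 ± 0.48 in CASP8 IEC-KO mice and 6.92 ± 0.28 in Casp8 fl/fl mice (SD, n = 5 each), a difference of -0.87 ± 0.26 (SE) on the log2 scale, or 1.83-fold lower (limma, adjusted p = 0.049).

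H2-DMb2, a DM beta chain, fell as well. It stood at 7.72, 5.93, 7.24, 7.15 and 7.59 in CASP8 IEC-KO mice, against 8.17, 8.54, 8.11, 8.28 and 8.38 in Casp8 fl/fl mice. The groups did not overlap. The difference was -1.17 ± 0.30 (SE), which is 2.25-fold lower in CASP8 IEC-KO mice (limma, adjusted p = 0.0188). Ciita and H2-DMb2 were the 2 of 9 measured members called lower, where 1.28% of all genes were in this comparison. All 9 averages were lower.

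The classical chains had differences of similar size but missed the threshold. H2-Ab1 stood at 11.29, 8.84, 10.43, 10.19 and 10.60 in CASP8 IEC-KO mice, against 11.27, 11.52, 11.20, 11.56 and 11.45 in Casp8 fl/fl mice. Again 4 of the CASP8 IEC-KO mice lay below the whole control range and replicate 1 lay inside it. The H2-Ab1 difference was -1.13 ± 0.36 (adjusted p = 0.062). H2-Aa differed by -1.03 (adjusted p = 0.105) and H2-Eb1 by -0.85 (adjusted p = 0.118).

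H2-DMb1 had the largest of the 9 differences, -1.35 ± 0.43, with adjusted p = 0.061. Its levels were 10.49, 7.92, 9.70, 9.66 and 9.98 in CASP8 IEC-KO mice, against 10.75, 11.02, 10.78, 11.01 and 10.95 in Casp8 fl/fl mice, with no overlap. H2-DMa, the DM alpha chain, differed by -1.01 (adjusted p = 0.082), also with no overlap. H2-DMa, H2-DMb1 and H2-DMb2 were thus the 3 members whose CASP8 IEC-KO values all lay below the control values, a pattern found in 1.57% of all genes. The DO chains differed less, H2-Oa by -0.43 (adjusted p = 0.099) and H2-Ob by -0.13 (adjusted p = 0.708). The median of the 9 differences was -1.01, against -0.02 over all genes, and 8 of 9 had an unadjusted p under 0.05, against 18.7% of all genes.

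**Figure D1:**
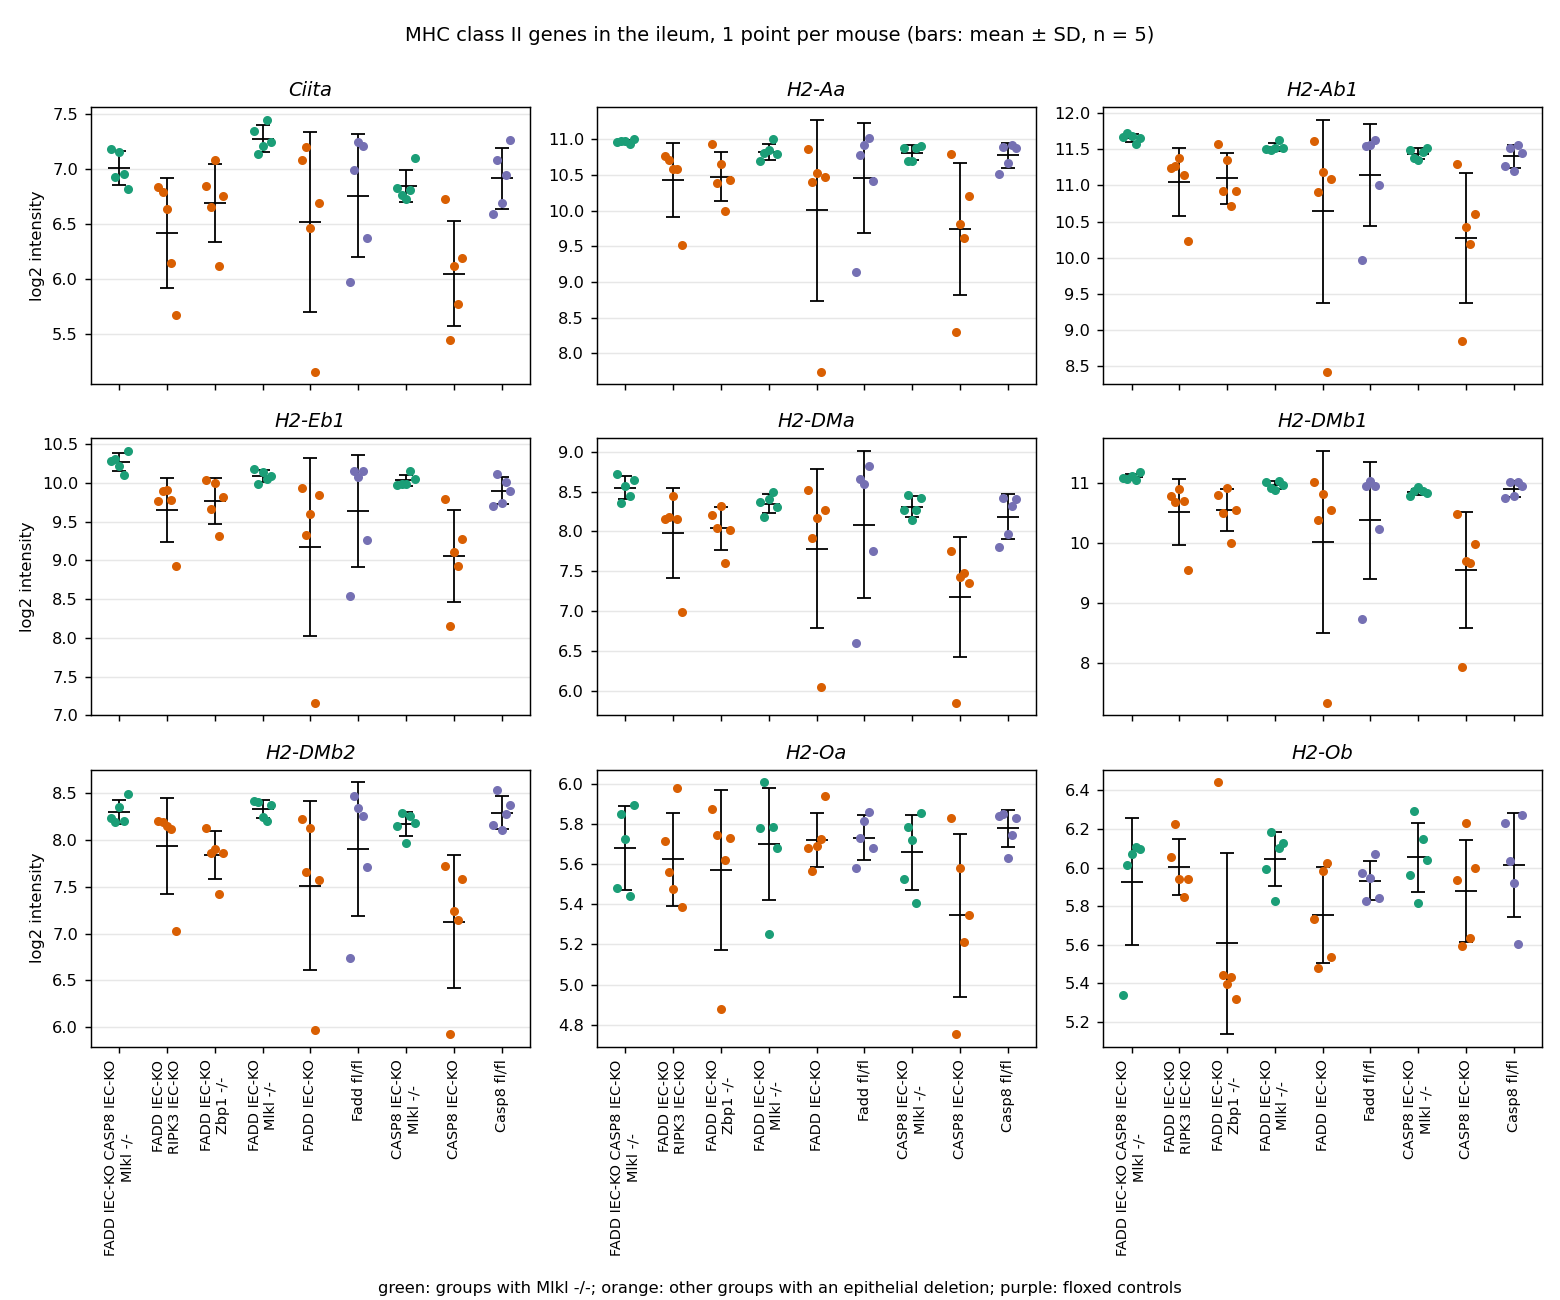
Log2 intensity (y axis) of each measured class II gene in every mouse (points) of the 9 genotype groups (x axis), with bars for the mean ± SD (n = 5). In CASP8 IEC-KO mice H2-DMb2 lies between 5.93 and 7.72, below all Casp8 fl/fl mice, while the 3 groups with Mlkl -/- form tight clusters for all members but H2-Oa and H2-Ob.

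The count of 2 depended on single mice. Without CASP8 IEC-KO replicate 1, the mouse with the least change in Casp8, 8 of 9 members were called lower. Without CASP8 IEC-KO replicate 2, the lowest mouse in all 9 members, or without Casp8 fl/fl replicate 2, none was called. Without CASP8 IEC-KO replicate 2, Ciita differed by -0.72 (adjusted p = 0.201) and H2-DMb2 by -0.87 (adjusted p = 0.135). Leaving out any one of the other 7 mice left 1 member called, H2-DMb2. The mouse numbers in the titles fall below 100 or from 200 up, and what this marks is not stated: among mice numbered under 100 (3 against 4), Ciita differed by -0.73, H2-Ab1 by -1.20 and H2-DMb2 by -1.31, and among those from 200 up (2 against 1) by -1.29, -1.05 and -1.01.

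With MLKL missing on top of caspase-8 loss, 9 of 9 members had higher averages, and 1 passed the test. H2-DMb2 stood at 8.15, 8.29, 7.97, 8.26 and 8.19 in CASP8 IEC-KO Mlkl -/- mice, all above the CASP8 IEC-KO mice, whose highest value was 7.72. It rose by 1.05 ± 0.30 on the log2 scale, a 2.06-fold difference (limma, adjusted p = 0.0431). It was the 1 member of 9 that passed the test, where 1.59% of all genes were called higher. H2-Ab1 stood at 11.49, 11.38, 11.35, 11.46 and 11.52 in CASP8 IEC-KO Mlkl -/- mice, each above the CASP8 IEC-KO maximum of 11.29, with a difference of 1.17 ± 0.36 (adjusted p = 0.071). In all, 6 of 9 members (Ciita, H2-Ab1, H2-Eb1, H2-DMa, H2-DMb1 and H2-DMb2) did not overlap between these groups, as did 2.22% of all genes in this direction.

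The remaining differences between these groups missed the threshold. For the DM chains they were 1.14 for H2-DMa (adjusted p = 0.061) and 1.31 for H2-DMb1 (adjusted p = 0.1001). They were 1.07 for H2-Aa, 0.98 for H2-Eb1 and 0.80 for Ciita, and the DO chains differed by 0.32 (H2-Oa) and 0.17 (H2-Ob). The CASP8 IEC-KO mice enter both this comparison and the one with Casp8 fl/fl, so the 2 sets of values are not independent. CASP8 IEC-KO Mlkl -/- mice set directly against Casp8 fl/fl mice had 0 of 9 members called (1.09% of all genes were), with a median difference of 0.04, a range from -0.12 to 0.13 and 0 members with an unadjusted p under 0.05 (11.8% of all genes).

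This call also turned on single mice. Without CASP8 IEC-KO replicate 1, 7 members were called higher. Without CASP8 IEC-KO replicate 2, 3 or 4, or without any one of the CASP8 IEC-KO Mlkl -/- mice, none was called. Without CASP8 IEC-KO replicate 5 the count stayed at 1. The H2-DMb2 difference was 0.75 (adjusted p = 0.246) without CASP8 IEC-KO replicate 2. Among mice numbered under 100 (4 against 3), H2-DMb2 differed by 1.20 and H2-Ab1 by 1.23, and among those from 200 up (1 against 2) by 0.82 and 1.12.

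Without FADD, no member passed the test. FADD IEC-KO mice had H2-Ab1 at 11.61, 10.91, 11.18, 8.43 and 11.09, and Fadd fl/fl mice at 9.97, 11.55, 11.56, 11.63 and 11.01. The ranges overlapped widely, and each group held 1 mouse far below its others. The difference was -0.50 ± 0.36 (95% interval -1.23 to 0.23, adjusted p = 0.497), and -0.74 (adjusted p = 0.287, again 0 members called) without FADD IEC-KO replicate 1. It depended on the lowest mice as well. The other 4 FADD IEC-KO mice averaged 11.20 without replicate 4, near the Fadd fl/fl mean of 11.14. The other 4 Fadd fl/fl mice averaged 11.44 without replicate 1. Across the 9 members the differences ran from -0.50 to -0.01 with a median of -0.36, with 0 called (3.73% of all genes were) and 0 with an unadjusted p under 0.05 (18.4% of all genes).

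FADD IEC-KO Mlkl -/- mice had higher averages than FADD IEC-KO mice in 8 of 9 members, also with none called (1.61% of all genes). Their H2-Ab1 levels were 11.50, 11.48, 11.52, 11.63 and 11.52, above 4 of the FADD IEC-KO mice, whose replicate 1 stood at 11.61. H2-DMb1 differed by 0.95 ± 0.43 and H2-Eb1 by 0.91 ± 0.31 (adjusted p = 0.177). Without FADD IEC-KO replicate 1, H2-Ab1 differed by 1.13 (adjusted p = 0.128) and 0 members were called. Leaving out FADD IEC-KO replicate 4 made the differences smaller. The other 4 FADD IEC-KO mice averaged 11.20 in H2-Ab1, 10.69 in H2-DMb1 and 9.68 in H2-Eb1. FADD IEC-KO Mlkl -/- mice averaged 11.53, 10.96 and 10.09. With all mice included, an unadjusted p under 0.05 was found for 6 of 9 members, against 10.5% of all genes.

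The other deletions added to FADD loss had 0 of 9 members called. Against FADD IEC-KO mice, the median difference was 0.33 in FADD IEC-KO Zbp1 -/- mice (3.32% of all genes called), while FADD IEC-KO RIPK3 IEC-KO mice had a median of 0.41 (1.55% called). Neither had a member at an unadjusted p under 0.05, against 17.8% of all genes with ZBP1 missing and 14.2% with RIPK3 deleted. By title number, H2-Ab1 went in opposite directions. Among mice numbered under 100 (3 against 4) it differed by 0.75 with ZBP1 missing and by 0.76 with RIPK3 deleted. Among those from 200 up (2 against 1) it differed by -0.27 and -0.41. The FADD IEC-KO mice under 100 included replicate 4 at 8.43, and the others under 100 stood at 10.91 to 11.61. The means under 100 of 11.283 with ZBP1 missing and 11.295 with RIPK3 deleted lay inside that range. The positive differences thus rested mainly on FADD IEC-KO replicate 4. Whether the caspase-8 and FADD effects differ was tested directly: the FADD effect minus the caspase-8 effect had a median of 0.63 over the members, the lowest adjusted p was 0.785, and 0 of 9 members and 0 of 19494 genes were called, with 0 members at an unadjusted p under 0.05 (6.52% of all genes). The MLKL effect without FADD minus that without caspase-8 had a median of -0.24 and again 0 of 9 members called or at an unadjusted p under 0.05 (0.0564% of all genes called, 6.3% at the unadjusted threshold).

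**Figure D2:**
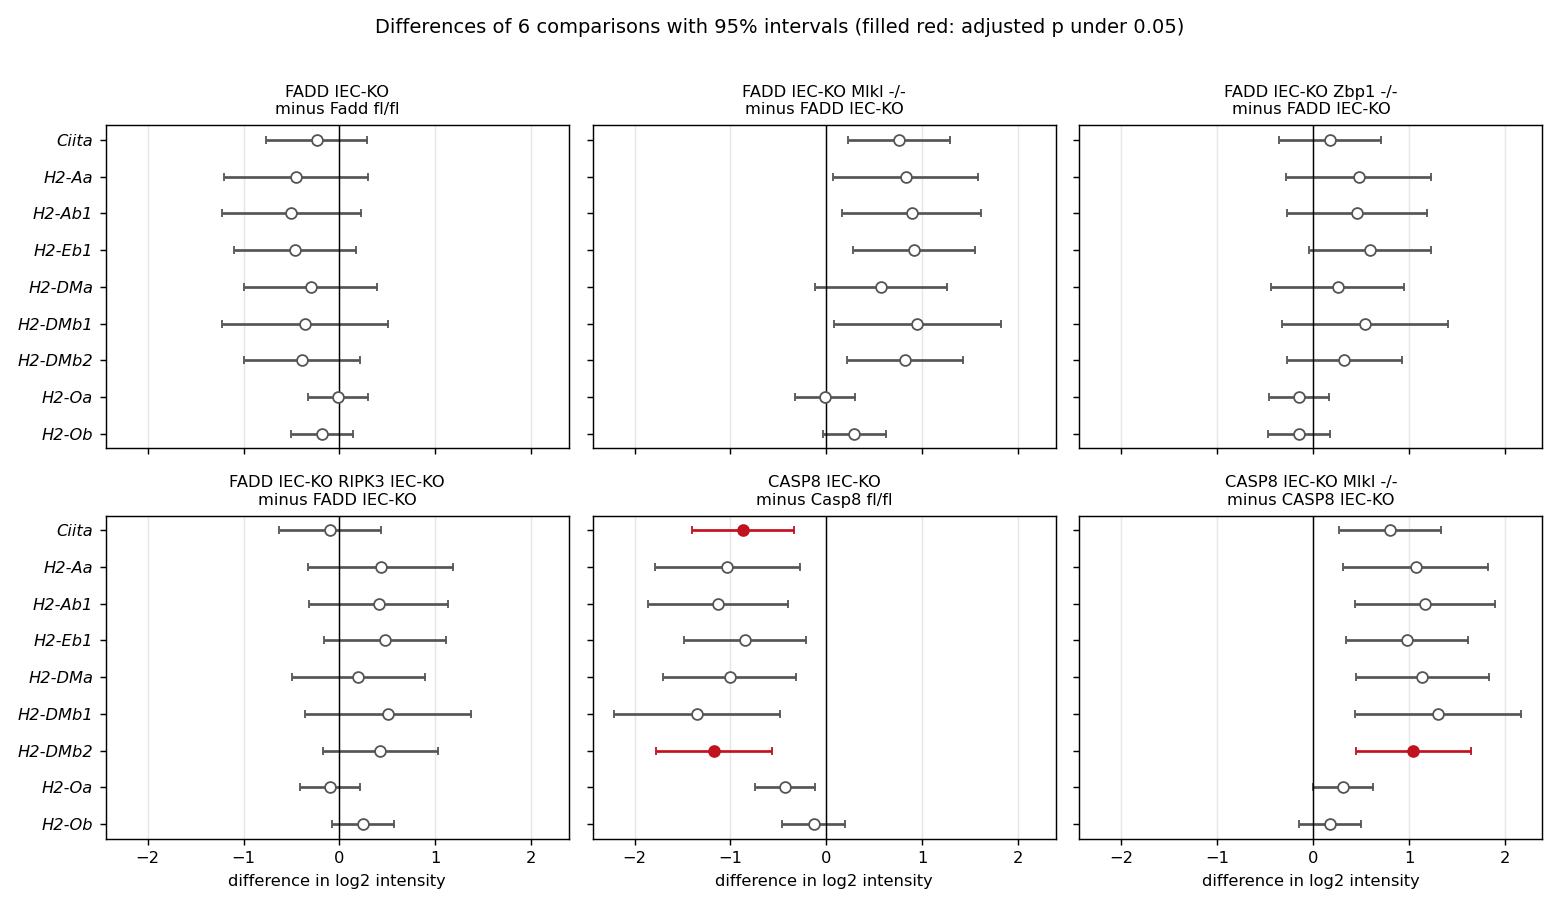
Difference in log2 intensity (x axis) of each class II gene (rows) with its 95% interval in 6 comparisons (panels, titled as the group minus its comparison group), with filled red points for an adjusted p under 0.05. The filled points are Ciita at -0.87 and H2-DMb2 at -1.17 in the caspase-8 panel, and H2-DMb2 at 1.05 in the panel of MLKL loss with caspase-8 loss.

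Among mice without FADD, Ciita was lower when RIPK3 was deleted in the epithelium than when MLKL was missing. Ciita stood at 6.84, 6.79, 6.63, 6.15 and 5.67 in the FADD IEC-KO RIPK3 IEC-KO mice, against 7.34, 7.13, 7.21, 7.45 and 7.24 in FADD IEC-KO Mlkl -/- mice. There was no overlap. The difference was -0.86 ± 0.26, 1.82-fold lower (limma, adjusted p = 0.0458). Ciita was the 1 member of 9 called lower, where 2.04% of all genes were, and all 9 averages were lower. The classical and DM genes had smaller differences: H2-Ab1 differed by -0.48, H2-Eb1 by -0.43 and H2-DMb2 by -0.39, with adjusted p between 0.539 and 0.558. These 3 genes did not overlap either, H2-DMb2 by a narrow margin (8.2045 against 8.20758), so the absence of overlap was not particular to Ciita. In all, 4 of 9 members did not overlap, and the share of all genes is not given here. Ciita lost its call when FADD IEC-KO RIPK3 IEC-KO replicate 4 (-0.79, adjusted p = 0.128) or 5 (-0.67, adjusted p = 0.191) was left out, or any of the FADD IEC-KO Mlkl -/- mice (adjusted p between 0.0736 and 0.0927). Among mice numbered under 100 (3 against 5) the difference was -0.52, and no FADD IEC-KO Mlkl -/- mouse carried a higher number.

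In the remaining comparisons no member was called. FADD IEC-KO CASP8 IEC-KO Mlkl -/- mice differed by a median of 0.13 from FADD IEC-KO Mlkl -/- mice (7.86% of all genes called), by 0.16 from CASP8 IEC-KO Mlkl -/- mice (3.1% called) and by 0.36 from the average of both floxed groups (3.69% called). Against Fadd fl/fl mice the medians were 0.39 in FADD IEC-KO Mlkl -/- mice (10.5% called), -0.05 in FADD IEC-KO Zbp1 -/- mice (11.9% called) and -0.02 for the FADD IEC-KO RIPK3 IEC-KO mice (1.23% called). With ZBP1 missing or RIPK3 deleted, the sign of the H2-Ab1 difference again varied with the title number. It differed by 0.52 and 0.53 among mice under 100 (3 against 2), and by -0.58 and -0.72 among those from 200 up (2 against 3). The Fadd fl/fl mice under 100 were replicate 1 at 9.97 and replicate 2 at 11.55. The tested means under 100 (11.283 and 11.295) lay below replicate 2, so the positive sign rested on replicate 1. FADD IEC-KO Zbp1 -/- mice differed from FADD IEC-KO Mlkl -/- mice by a median of -0.41 (4.12% called). Of the controls, Fadd fl/fl mice averaged below Casp8 fl/fl mice in 9 of 9 members, with a median of -0.26, 0 members called (0.00513% of all genes were) and 0 at an unadjusted p under 0.05 (8.38% of all genes). In the other comparisons of this paragraph, FADD IEC-KO Zbp1 -/- mice had 2 members at an unadjusted p under 0.05 against FADD IEC-KO Mlkl -/- mice (17.2% of all genes) and 1 against Fadd fl/fl mice (25.2%). The rest had 0: FADD IEC-KO Mlkl -/- mice (23.4% of all genes) and FADD IEC-KO RIPK3 IEC-KO mice (13.9%) against Fadd fl/fl mice, and the FADD IEC-KO CASP8 IEC-KO Mlkl -/- mice against FADD IEC-KO Mlkl -/- mice (21.6%), CASP8 IEC-KO Mlkl -/- mice (15.6%) and the floxed groups (17.8%). These p-values do not show the Mlkl -/- groups to be alike, as the shared spread exceeds theirs. H2-DMb1 lay at 11.05 to 11.18 with FADD and caspase-8 both deleted beside MLKL loss. It lay at 10.79 to 10.93 in CASP8 IEC-KO Mlkl -/- mice and 10.89 to 11.03 in FADD IEC-KO Mlkl -/- mice. H2-Aa and H2-Ab1 also did not overlap with CASP8 IEC-KO Mlkl -/- mice. The share of all genes without overlap is not given here.

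Set in order from low to high, H2-Ab1 averaged 10.27 in CASP8 IEC-KO mice and 10.64 in FADD IEC-KO mice. It averaged 11.05 with RIPK3 and 11.10 with ZBP1 missing beside FADD, 11.14 in the Fadd fl/fl group and 11.40 in the Casp8 fl/fl group. At the top stood CASP8 IEC-KO Mlkl -/- mice (11.44), FADD IEC-KO Mlkl -/- mice (11.53) and the FADD IEC-KO CASP8 IEC-KO Mlkl -/- mice (11.66). Only the last 2 steps were larger than the SDs of the groups on both sides. For Ciita the lowest mean was 6.05 in CASP8 IEC-KO mice and the highest 7.28 in FADD IEC-KO Mlkl -/- mice, and only the last step, up from 7.01 in FADD IEC-KO CASP8 IEC-KO Mlkl -/- mice, exceeded the SDs. For H2-DMb2, H2-Oa and H2-Ob no neighbours in the order differed by more than their SDs.

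The groups also differed in how much mice of the same genotype varied. In the 3 groups with Mlkl -/-, the SD of H2-Ab1 over 5 mice was 0.05 to 0.07, and in the other groups it was 0.16 to 1.27. For H2-DMb1 the SDs were 0.05 to 0.06 in the Mlkl -/- groups and 0.13 to 1.52 in the other groups. In 7 of 9 members, all but H2-Oa and H2-Ob, the Mlkl -/- groups had the 3 smallest SDs of the 9 groups, which held for 5.01% of all genes. The classical and DM genes varied together within groups (r = 0.94 to 0.99), so these members are not separate observations. Over all genes, the median SD was 0.156 to 0.162 in the Mlkl -/- groups, against 0.180 to 0.214 in the others. All title numbers were under 100 in FADD IEC-KO Mlkl -/- mice. With FADD and caspase-8 both deleted beside MLKL loss, all were from 200 up. CASP8 IEC-KO Mlkl -/- mice, like the remaining groups, had both kinds. The smaller spread is a description, noticed in the data and not tested. The median SD of the 9 members lay above that of 99.7% of genes in FADD IEC-KO mice, 99.5% in Fadd fl/fl mice, 99.3% in CASP8 IEC-KO mice and 98.5% in the FADD IEC-KO RIPK3 IEC-KO mice. It lay above 86.4% in FADD IEC-KO Zbp1 -/- mice, 42.3% in Casp8 fl/fl mice, 34.6% in CASP8 IEC-KO Mlkl -/- mice, 34.5% in FADD IEC-KO CASP8 IEC-KO Mlkl -/- mice and 28.7% in FADD IEC-KO Mlkl -/- mice.

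**Figure D3:**
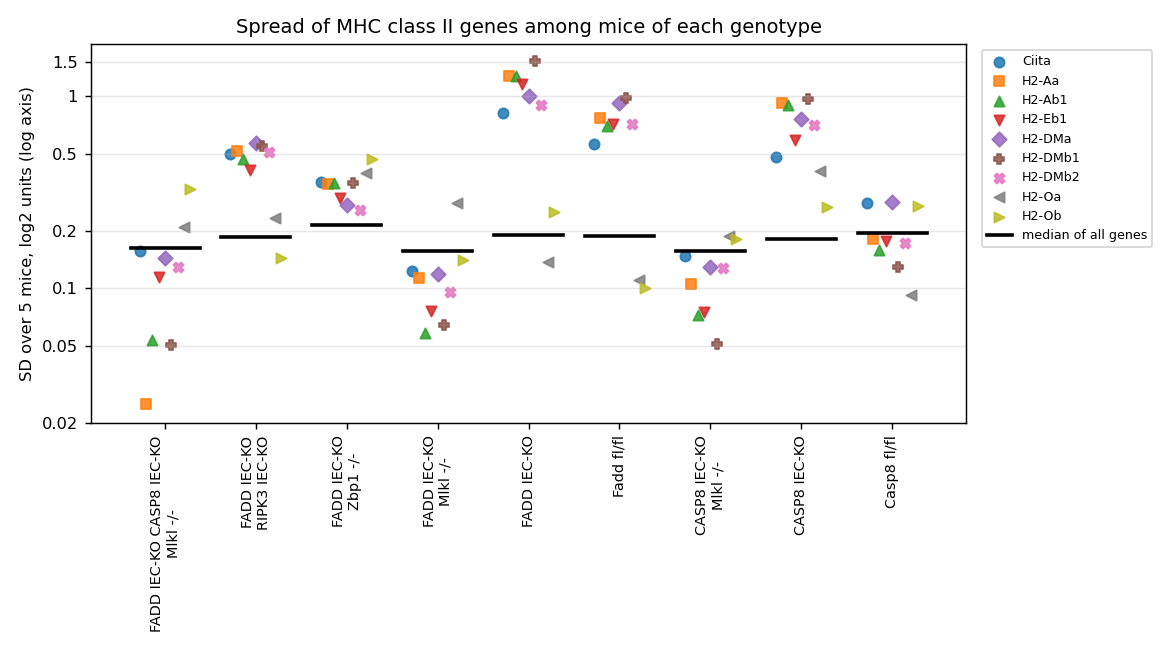
SD over 5 mice in log2 units (y axis, log scale) of each class II gene (symbols) in the 9 genotype groups (x axis), with a bar for the median SD of all genes. In the Mlkl -/- groups H2-Ab1 and H2-DMb1 lie between 0.05 and 0.07, under the bars, and in FADD IEC-KO mice H2-DMb1 reaches 1.52.

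In 5 groups one mouse was the lowest in 7 or more of the 9 members, and in the other 4 groups no mouse was the lowest in more than 5. CASP8 IEC-KO replicate 2 was the lowest of its group in 9 of 9 members, Fadd fl/fl replicate 1 in 8, FADD IEC-KO RIPK3 IEC-KO replicate 5 in 8, FADD IEC-KO replicate 4 in 7 and FADD IEC-KO Zbp1 -/- replicate 4 in 7. In FADD IEC-KO replicate 4, H2-DMb1 stood at 7.33, and in the other FADD IEC-KO mice at 10.38 to 11.01. One of these low mice was a floxed control: in Fadd fl/fl replicate 1, H2-DMb1 stood at 8.72, and the other Fadd fl/fl mice at 10.23 to 11.04.

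The same mice were low in markers of T cells. The mean of 8 measured T cell markers (of 10 named) was 5.74 in CASP8 IEC-KO replicate 2, where the group's highest mouse had 6.79. It was 5.58 in FADD IEC-KO replicate 4 (group maximum 6.66), 5.82 in FADD IEC-KO RIPK3 IEC-KO replicate 5 (6.47), 5.89 in FADD IEC-KO Zbp1 -/- replicate 4 (6.50) and 5.85 in Fadd fl/fl replicate 1 (6.78), the lowest of its group each time. Each of these mice was also the lowest of its group in the mean of 22 class II regulators (7.45, 7.21, 7.45, 7.43 and 7.49 in the same order). The other immune cell lists held less evenly. In macrophage and plasma cell markers, FADD IEC-KO RIPK3 IEC-KO replicate 4 was the lowest instead of replicate 5. In dendritic cell markers, FADD IEC-KO replicate 2 was the lowest instead of replicate 4. In B cell markers only CASP8 IEC-KO replicate 2 among these mice was the lowest of its group. The mean of the 10 epithelial markers ranged from 11.29 to 11.44 in CASP8 IEC-KO mice and from 11.37 to 11.46 in FADD IEC-KO mice.

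Among mice of the same genotype, the classical and DM genes correlated with Ciita, and no such correlation was seen for the dim DO genes. Over 45 arrays, with each value taken as its deviation from the group mean, Ciita correlated with H2-Aa at Pearson's r = 0.89 (Spearman's rho = 0.80), with H2-Eb1 at 0.88 (0.76), with H2-Ab1 at 0.87 (0.80), with H2-DMa at 0.87 (0.76), with H2-DMb1 at 0.86 (0.74) and with H2-DMb2 at 0.84 (0.68). The two-sided permutation p within groups, adjusted over 8 genes, was 1.6e-05 for the first 5 and 4e-05 for H2-DMb2 (100000 permutations, smallest possible unadjusted p = 1e-05). H2-Oa had r = 0.18 (permutation adjusted p = 0.275) and H2-Ob r = -0.01 (adjusted p = 0.96). Both were dim, with averages of 5.65 and 5.91. Over all arrays they ranged over 1.26 and 1.12 log2 units, against 2.29 to 3.85 in the other members. Signals that vary so little limit what r can show, and the part of this in the low values was not tested. The H2-Ob promoter holds the same pair of motifs as H2-Eb1. H2-Aa and H2-DMa, which correlated with Ciita, had no such pair in their entries, so the pair did not sort these genes. Without the 2 mice farthest from the median of Ciita (FADD IEC-KO replicate 4 and Fadd fl/fl replicate 1), the first 6 lay between 0.73 and 0.81, and H2-Oa and H2-Ob stood at 0.19 and 0.12.

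The 6 classical and DM genes correlated with each other at 0.94 to 0.99, more closely than any of them with Ciita. H2-Oa correlated with these genes and Ciita at 0.18 to 0.37 and with H2-Ob at 0.39. These genes share arrays and RNA extracts, so such values hold no information on how one gene acts on another.

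**Figure D4:**
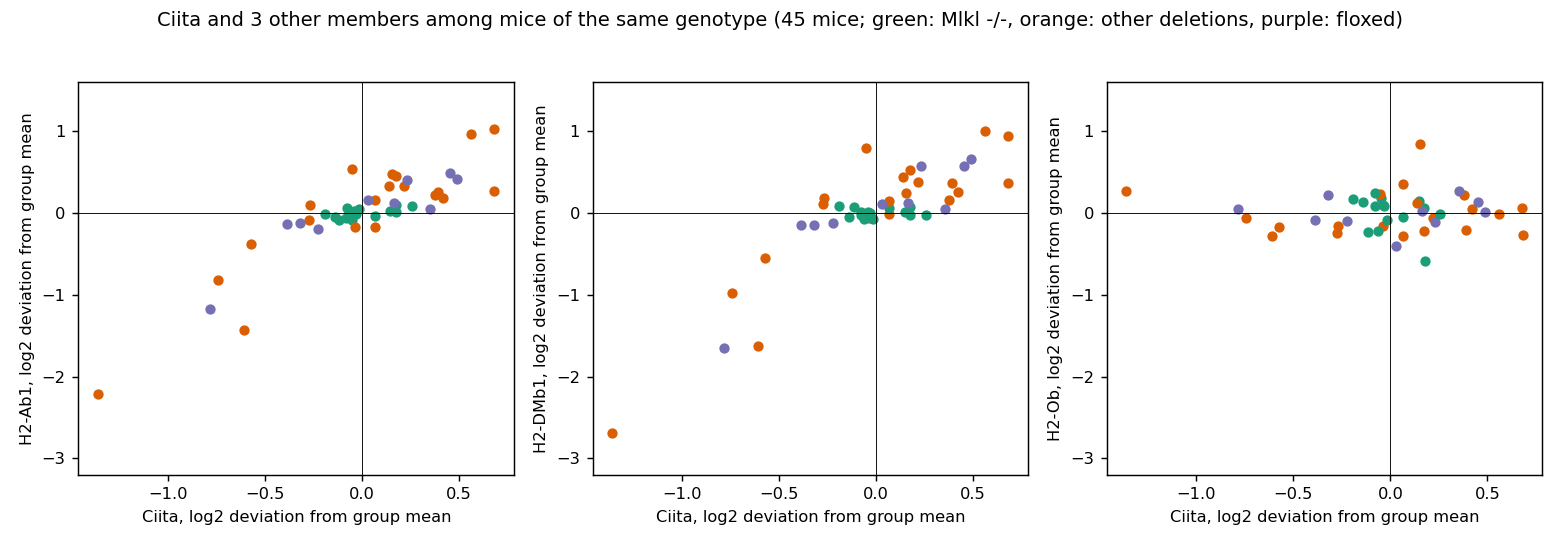
Deviation of H2-Ab1, H2-DMb1 and H2-Ob (y axes, left to right) from the mean of their group against that of Ciita (x axes), both in log2 units, 1 point for each of 45 mice (green Mlkl -/-, orange other deletions, purple floxed). H2-Ab1 and H2-DMb1 follow Ciita (r = 0.87 and 0.86), the green points gather near 0, and H2-Ob shows no slope (r = -0.01).

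Markers of immune cells moved with class II across mice. Over the 45 arrays, again as deviations from group means, H2-Ab1 correlated with the mean of T cell markers at r = 0.80 (rho = 0.74), of 6 plasma cell markers at 0.77 (0.67), of 9 macrophage markers at 0.77 (0.68), of 11 dendritic cell markers at 0.56 (0.57) and of 15 B cell markers at 0.51 (0.58), with permutation adjusted p between 3.75e-05 and 0.00135 for r and between 3.75e-05 and 0.000788 for rho over 15 lists. Without FADD IEC-KO replicate 4 and CASP8 IEC-KO replicate 2, the values were 0.80 for T cells, 0.66 for plasma cells, 0.68 for macrophages, 0.61 for dendritic cells and 0.54 for B cells. For epithelial markers r was -0.27 (rho = -0.32, permutation adjusted p = 0.155 and 0.0636), and -0.49 without the 2 mice. The closest lists were not cell type markers: class II regulators had r = 0.84 (rho = 0.79) and other genes of the locus r = 0.82 (rho = 0.79). Markers of M cells, ileum and large intestine had r = 0.10, -0.12 and 0.02. What lies behind these correlations was not tested.

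Beside the fall in CASP8 IEC-KO mice, T cell markers had 0 of 8 called and a median difference of -0.42, with mean levels of 5.74 to 6.79 in CASP8 IEC-KO mice, against 6.32 to 6.82 in Casp8 fl/fl mice. Dendritic cell markers had 1 of 11 called, Itgae (an integrin also found on gut T cells), at -0.73 ± 0.22 (adjusted p = 0.0431), and ranged from 5.40 to 5.78 in CASP8 IEC-KO mice, against 5.69 to 5.98 in Casp8 fl/fl mice. Macrophage markers had 0 of 9 called (median -0.15; mean level 6.66 in CASP8 IEC-KO mice, against 6.87 in Casp8 fl/fl mice) and B cell markers 0 of 15 (median -0.14; 5.39 to 5.60 in CASP8 IEC-KO mice, against 5.49 to 5.77 in Casp8 fl/fl mice). With the B cell marker mean as a covariate the Ciita difference was -0.64 ± 0.25 (adjusted p = 0.150) and that of H2-DMb2 -0.85 ± 0.26 (adjusted p = 0.064), so that 0 of 9 members were called. Of 10 epithelial markers, the keratins Krt18 (0.43) and Krt8 (0.22) rose in CASP8 IEC-KO mice, as did Car1 (4.09), a carbonic anhydrase and the 1 of 5 large intestine markers that was called. The part of T cells, dendritic cells, macrophages, epithelium and large intestine in the result was not tested.

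In CASP8 IEC-KO Mlkl -/- mice, T cell markers ranged from 6.54 to 6.79, against 5.74 to 6.79 in CASP8 IEC-KO mice, with 0 of 8 called and a median difference of 0.47. Of 11 dendritic cell markers 2 rose, Itgae by 0.78 and Xcr1, a receptor of cross-presenting dendritic cells, by 0.65, while Krt18 fell by 0.39 and Car1 by 4.09. With the B cell marker mean as a covariate, H2-DMb2 differed by 0.83 ± 0.26 (adjusted p = 0.087) and was not called. In FADD IEC-KO RIPK3 IEC-KO mice, B cell markers ranged from 5.37 to 5.58, against 5.51 to 5.87 in FADD IEC-KO Mlkl -/- mice (0 of 15 called, median -0.17), and with their mean as a covariate Ciita differed by -0.57 ± 0.26 (adjusted p = 0.289). The part of the other cell types was not tested here either.

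Of 22 measured regulators of class II genes (24 named), 1 was called higher in CASP8 IEC-KO mice and 0 were called lower. It was Nfyb, a subunit of NF-Y, with a difference of 0.29 ± 0.08 (limma, adjusted p = 0.0375). In FADD IEC-KO mice Spi1, the myeloid and B cell factor PU.1, fell by 0.98 ± 0.28 (adjusted p = 0.0358), while the macrophage markers C1qb (-0.71), Csf1r (-0.61) and Cd163 (-0.53) fell as well, 3 of 9 in that list. In FADD IEC-KO RIPK3 IEC-KO mice set against FADD IEC-KO Mlkl -/- mice, Rfx5, the RFX subunit that binds the X box, fell by 0.38 ± 0.11 (adjusted p = 0.0385), and the interferon gamma signalling genes Jak2 (0.35) and Ifngr2 (0.25) rose. More regulators passed the test against Fadd fl/fl mice: 4 of 22 in FADD IEC-KO Mlkl -/- mice, where 10.5% of all genes were called, with Spi1 (-0.83) and Tgfb1 (-0.46) lower and Rfx5 (0.34) higher among them. In FADD IEC-KO Zbp1 -/- mice 3 of 22 fell, Spi1 (-1.33), Tgfb1 (-0.52) and Nfyc (-0.34), where 11.9% of all genes were called.

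Genes of the same locus that serve MHC class I rose in both comparisons that add MLKL loss. Of 7 measured genes of the locus (10 named), Tap1 and Tap2, which make the peptide transporter, and Psmb8, an immunoproteasome subunit, rose in CASP8 IEC-KO Mlkl -/- mice against CASP8 IEC-KO mice, by 1.36 ± 0.32 (adjusted p = 0.0085), 0.54 ± 0.13 and 1.15 ± 0.31. In FADD IEC-KO Mlkl -/- mice against FADD IEC-KO mice, Psmb8 (1.22), Psmb9 (1.18) and Tap2 (0.61) were called higher. No class II member was called there, though 8 of 9 averages were higher. In FADD IEC-KO RIPK3 IEC-KO mice against FADD IEC-KO Mlkl -/- mice, 4 of 7 fell, among them Tap1 (-1.17), Psmb8 (-1.07) and Psmb9 (-0.97). In CASP8 IEC-KO mice against Casp8 fl/fl mice only Tap2 was called lower (-0.44 ± 0.13, limma adjusted p = 0.0388).

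Of 11 measured peptide processing genes, 2 rose in CASP8 IEC-KO Mlkl -/- mice against CASP8 IEC-KO mice, both of which cut the invariant chain: Ctss (cathepsin S) by 0.38 and Sppl2a, an intramembrane protease, by 0.37. Sppl2a fell by 0.41 and Marchf8, a ubiquitin ligase that turns over surface proteins, rose by 0.30 in FADD IEC-KO RIPK3 IEC-KO mice against FADD IEC-KO Mlkl -/- mice. Lgmn, an endosomal protease, fell by 0.38 in FADD IEC-KO Mlkl -/- mice against FADD IEC-KO mice. Against Fadd fl/fl mice, 3 of 11 fell in FADD IEC-KO Mlkl -/- mice: Ctsl (cathepsin L, -0.56), Lgmn (-0.54) and Ifi30 (a thiol reductase of endosomes, -0.37), where 10.5% of all genes were called. In FADD IEC-KO CASP8 IEC-KO Mlkl -/- mice against FADD IEC-KO Mlkl -/- mice, 3 of 11 rose, Lgmn (0.43), Marchf8 (0.40) and Ctsb (cathepsin B, 0.25), where 7.86% of all genes were called. Of 8 genes of T cell recognition and costimulation, Cd274 (PD-L1) rose by 1.57 ± 0.41 (adjusted p = 0.0204) in CASP8 IEC-KO Mlkl -/- mice against CASP8 IEC-KO mice. Cd4 fell by 0.57 in FADD IEC-KO mice against Fadd fl/fl mice, and Cd40 by 0.43 in FADD IEC-KO RIPK3 IEC-KO mice against FADD IEC-KO Mlkl -/- mice.

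The genes whose levels most resembled the mean of the 9 members were class I and interferon-induced genes and immune cell genes. Over the 45 arrays the 8 highest Pearson correlations were those of Psmb8 (0.87), Gbp7 (0.85), Tap1 (0.83), B2m (0.83), Psmb9 (0.82), Tapbpl (0.82), Irgm2 (0.82) and Slamf7 (0.82). Over deviations from group means they were those of Jchain (0.89), Slamf7 (0.88), B2m (0.87), H2-K1 (0.87), Ptprc (0.87), Psmb8 (0.86), H2-T23 (0.86) and Lilrb4a (0.85). Psmb8, B2m (the light chain of class I molecules) and Slamf7 (a receptor of plasma cells and other leukocytes) stood in both sets.

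Some of these genes passed the test in a comparison where most members did not. They were picked by their correlation with the members over the same arrays, so a change alongside the members is partly fixed by that choice. In CASP8 IEC-KO Mlkl -/- mice against CASP8 IEC-KO mice, Irgm2, an interferon-induced GTPase, rose by 1.61 ± 0.39 (adjusted p = 0.0127), Gbp7, another, by 1.27 ± 0.30 (adjusted p = 0.0104), and H2-T23, a nonclassical class I gene, by 0.80 ± 0.14 (adjusted p = 0.000169). In CASP8 IEC-KO mice against Casp8 fl/fl mice none of these 13 genes passed, with differences from -0.83 (Gbp7, adjusted p = 0.110) to -0.16 (B2m).

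**Figure D5:**
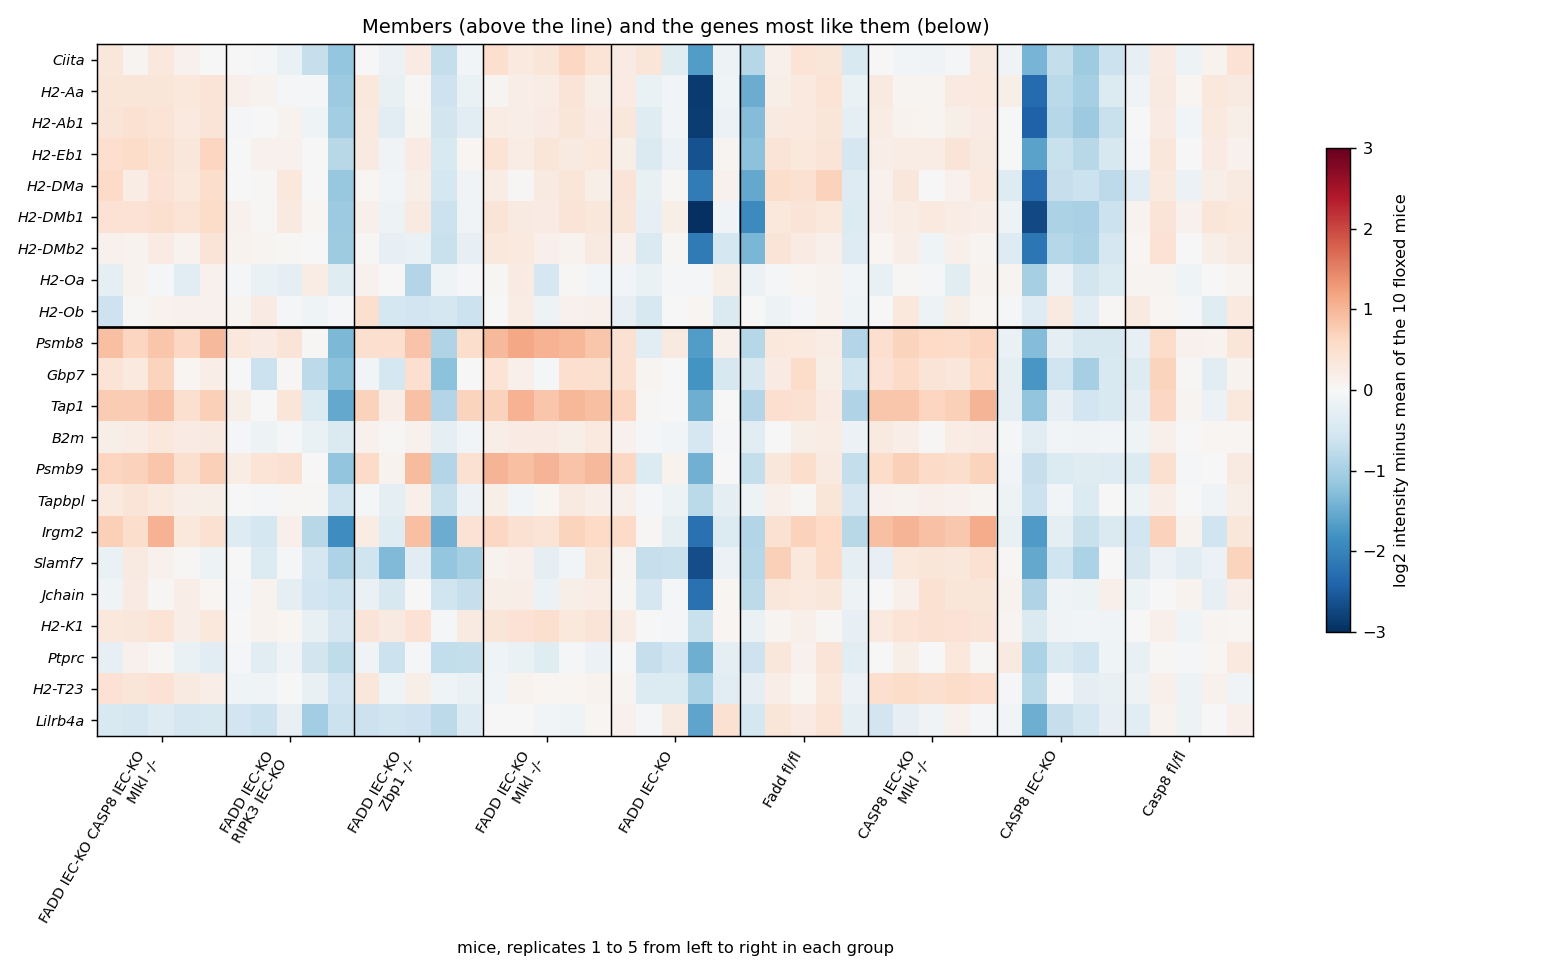
Log2 intensity minus the mean of the 10 floxed mice (colour scale from -3 to 3) of the 9 class II genes (above the line) and of the 13 genes most like them (below), with each column 1 mouse and the 9 groups set apart by vertical lines. The dark column in FADD IEC-KO mice is replicate 4 (H2-DMb1 at 7.33) and that in CASP8 IEC-KO mice is replicate 2 (H2-DMb1 at 7.92), while H2-Oa and H2-Ob stay pale in most mice.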

How the data were processed

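The authors deposited normalized log2 intensities; Affymetrix Expression Console and Transcriptome Analysis Console were used, per the submitters' processing notes, and the summarization method is not given in the sources used here. Of 22142 probes, 19527 had 1 gene symbol and 2615 (11.8%) had none and were left out; the brightest probe by mean was taken for each symbol, which gave 19494 genes. No filter on dim probes was applied. Array number limits the precision: 5 mice per group, 36 residual degrees of freedom.

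A mean per genotype group was fitted over all 45 arrays with lmFit and eBayes (limma 3.58.1, R 4.3.3), with 16 contrasts and 2 differences of contrasts. P-values were Benjamini-Hochberg adjusted over all genes within each contrast, and genes were called at an adjusted p under 0.05. Correlations used deviations from group means and 100000 permutations within groups, adjusted over the genes or lists tested. All members are named; of other lists, in each comparison where the list is described, called genes up to the 3 with the largest change; and the 8 genes most like the members by each measure. The class II members, the gene lists and the tests were chosen with earlier results of these data known. The fit was tested on simulated data. Promoters came from RefSeq tables (GRCm38.p6), searched by exact letters; Ciita and H2-Ab1 had no entry there.

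Alternatives tried were a fit of the compared groups alone, title number series, Y-linked gene index or B cell marker mean as a covariate, quantile or median centring, dim genes left out, array weights, eBayes with trend and robust, and each mouse left out. A planned index of sex was to use Xist, which is not among the measured genes, so 3 Y-linked genes were used. Array weights by group and leaving out both mice nearest to control level in the targeted gene were added after seeing the data.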

Additional observations from a re-analysis of the deposited data

Results flagged for a closer look

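In 18 of 81 combinations of member and group, the lowest or highest of 5 mice stood apart from the rest by Dixon's criterion (gap over range above 0.71). Chance gives about 1 in 20 for a single combination. The members vary together within a mouse, so the 81 are not independent, and the count cannot be set against that rate. The lowest mouse was set apart in 15 and the highest in 3.

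FADD IEC-KO replicate 4 stood apart in H2-Aa (7.74), H2-Ab1 (8.43), H2-Eb1 (7.16), H2-DMa (6.04), H2-DMb1 (7.33) and H2-DMb2 (5.97), that is, in all classical and DM genes and not in Ciita or the DO chains. FADD IEC-KO RIPK3 IEC-KO replicate 5 stood apart in the same 6 genes: H2-Aa (9.51), H2-Ab1 (10.2), H2-Eb1 (8.93), H2-DMa (6.99), H2-DMb1 (9.55) and H2-DMb2 (7.02). CASP8 IEC-KO replicate 2 stood apart low in H2-DMa (5.85).

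Among the DO chains, FADD IEC-KO Zbp1 -/- replicate 3 was low in H2-Oa (4.88), FADD IEC-KO CASP8 IEC-KO Mlkl -/- replicate 1 was low in H2-Ob (5.34), and FADD IEC-KO Zbp1 -/- replicate 1 was high in H2-Ob (6.44). The other high values were CASP8 IEC-KO Mlkl -/- replicate 5 in Ciita (7.10) and FADD IEC-KO Mlkl -/- replicate 4 in H2-Ab1 (11.6), both in groups where the members varied little.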

How the results depend on the processing

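No paired analysis was possible because the titles' mouse numbers are shared by no 2 groups. With 2 members called in CASP8 IEC-KO against Casp8 fl/fl mice, the count was 0 in a fit of only these groups or with the B cell marker mean. It was 1 with the title number series, quantile normalization, median centring, eBayes with trend and robust or array weights by group. It was 4 with array weights, 5 with dim genes left out (7 members kept) and 8 without both mice nearest to control level in the targeted gene. Leaving out 1 mouse gave 0 to 8. With 1 called in CASP8 IEC-KO Mlkl -/- against CASP8 IEC-KO mice, the count was 0 with the title number series, eBayes with trend and robust or the B cell marker mean. It was 3 with dim genes left out, 6 with array weights by group and 7 with array weights. It was 7 without both mice nearest to control level and 0 to 7 leaving out 1 mouse. With 1 called in FADD IEC-KO RIPK3 IEC-KO against FADD IEC-KO Mlkl -/- mice, it was 0 with the title number series, the Y-linked gene index, eBayes with trend and robust or the B cell marker mean, and 0 to 1 leaving out 1 mouse. FADD IEC-KO Zbp1 -/- mice had 0 called against FADD IEC-KO Mlkl -/- mice but 1 with array weights, and 0 to 1 leaving out 1 mouse; against Fadd fl/fl mice it was 0 to 1. The other 13 counts were 0 under every alternative run. The causes were not tested.

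The correlations of Ciita without the 2 farthest mice were 0.813 (H2-Aa), 0.790 (H2-Ab1), 0.795 (H2-Eb1), 0.789 (H2-DMa), 0.771 (H2-DMb1) and 0.734 (H2-DMb2). With the B cell marker mean removed, H2-Ob had r = -0.40 with Ciita. Of 3663 differences of members recomputed under alternatives, 0 called ones turned direction, 165 uncalled ones changed sign (none larger than 0.54), 43 lost and 46 gained a call. The filter on dim genes left out H2-Oa and H2-Ob. Signal over background is not analysed here. Quantile normalization moved the median of all genes by at most 0.02.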
